A study of Mus musculus with 4 samples.

Results

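The genes described here encode subunits of the mitochondrial respiratory chain in mouse epididymal fat. Members were taken by symbol from the array annotation: Ndufa, Ndufb, Ndufc, Ndufs or Ndufv with a digit, Uqcr, Cox4 to Cox8, Sdha to Sdhd, and Cyc1. This gave 68 genes of 19505 with a name, each read by 1 probe set, and 66 of them lay above a floor set on the mean level. RNA from the fat pad of male mice was hybridised to 4 Clariom S Mouse arrays, 1 for each group. The vehicle sham group had DMSO and sham surgery, and the vehicle overload group had DMSO and synergist ablation, a surgery that puts mechanical overload on a muscle. The GW4869 sham and GW4869 overload groups had the same surgeries together with GW4869, a drug given to inhibit extracellular vesicles. The labels give no strain, age, dose, time after surgery or number of mice behind an array.

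The respiratory chain passes electrons from NADH and succinate to oxygen across the inner mitochondrial membrane and pumps protons as it does so. Complex I takes electrons from NADH, complex II from succinate, complex III hands them to cytochrome c and complex IV reduces oxygen. A few subunits are encoded by mitochondrial DNA, and all members here are encoded in the nucleus. White adipocytes use the chain to make ATP and to reoxidise the carriers reduced by fatty acid and glucose breakdown. Several subunits of complex IV exist as a widely used form and a second form known from muscle, testis or lung.

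Values are log2 levels as the authors deposited them, and a difference of 1 unit is a doubling on that scale. Probe sets of different genes bind with different strength, so a level was compared only with the same gene on the other arrays. Since each group is a single array, no replicate error or test could be had, and every difference describes a pair of arrays. In bulk tissue, fewer cells of a type and less RNA per cell cannot be told apart. A gene was counted as higher or lower when the arrays differed by at least 1.5-fold, and counts are read against the share of all 11703 genes above the floor, log2 4.67, that passed the same threshold.

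Promoter sequences are shown for 3 subunits to which the results return, with a motif found in each. The RefSeq table of build GRCm38.p6 held a promoter, 250 bases before to 50 after the start, for 54 of the 68 members, and the 250 bases before the start are printed. Capitals mark matches to the NRF1 motif, which reads GCGCA, any base and GCGC, in Sdha (chr13:74350241-74350490, minus strand) and Sdhd (chr9:50603850-50604099, minus strand). In Uqcrfs1 (chr13:30545317-30545566, minus strand) they mark TGACGTCA, the CREB motif.
Sdha: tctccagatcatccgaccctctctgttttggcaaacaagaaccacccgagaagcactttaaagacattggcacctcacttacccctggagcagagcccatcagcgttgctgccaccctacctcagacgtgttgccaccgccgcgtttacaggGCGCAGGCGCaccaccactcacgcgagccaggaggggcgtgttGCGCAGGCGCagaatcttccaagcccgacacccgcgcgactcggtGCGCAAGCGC
Sdhd: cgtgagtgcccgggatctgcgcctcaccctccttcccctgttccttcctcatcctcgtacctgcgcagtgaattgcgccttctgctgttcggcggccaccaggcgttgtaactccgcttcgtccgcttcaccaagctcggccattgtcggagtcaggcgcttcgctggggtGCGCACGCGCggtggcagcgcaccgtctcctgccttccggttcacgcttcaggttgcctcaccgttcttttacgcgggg
Uqcrfs1: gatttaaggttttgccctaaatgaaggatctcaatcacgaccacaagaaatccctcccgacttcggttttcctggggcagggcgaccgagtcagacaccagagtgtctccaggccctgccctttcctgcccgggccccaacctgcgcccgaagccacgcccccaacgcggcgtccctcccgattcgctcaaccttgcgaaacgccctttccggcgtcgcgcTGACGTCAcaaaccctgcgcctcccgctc

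Sdha held 3 matches to the NRF1 letters and Sdhd held 1. Both strands of the whole windows were searched for 5 motifs, none of which holds another. The NRF1 letters were in 11 of 54 members (20.4%), against 5.19% of the 27025 genes in the table. AAGATGGCG (YY1) was in 5 members (9.26%) and 1.64% of genes, and CCGGAAGT (GABPA) was in 4 (7.41%) and 4.31%. TGACGTCA was in 4 members (7.41%) and 2.03% of genes, and TCAAGGTCA (ESRRA) was in 1 (1.85%) and 0.466%. The 11 members with the NRF1 letters had a median overload difference of 0.17 under vehicle and -0.48 under GW4869. The 43 matched members without them had 0.35 and -0.45. The 4 members with TGACGTCA had 0.55 and -0.44, and the 50 without it 0.33 and -0.46. A match describes letters in a window and is not a measured binding site. The shares were not matched for CG content, which is given below, and all of these motifs but ESRRA hold a CG pair.

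The second pair of promoters belongs to the widely used and the testis form of a complex IV subunit, whose levels are given further on. Capitals mark CG pairs in the 250 bases before the start of Cox6b1 (chr7:30626115-30626364, minus strand) and Cox6b2 (chr7:4753095-4753344, minus strand).
Cox6b1: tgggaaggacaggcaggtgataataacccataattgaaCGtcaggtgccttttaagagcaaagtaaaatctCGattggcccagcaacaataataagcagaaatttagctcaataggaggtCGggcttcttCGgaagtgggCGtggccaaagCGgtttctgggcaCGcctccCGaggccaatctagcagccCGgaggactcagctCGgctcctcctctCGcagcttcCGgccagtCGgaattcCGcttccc
Cox6b2: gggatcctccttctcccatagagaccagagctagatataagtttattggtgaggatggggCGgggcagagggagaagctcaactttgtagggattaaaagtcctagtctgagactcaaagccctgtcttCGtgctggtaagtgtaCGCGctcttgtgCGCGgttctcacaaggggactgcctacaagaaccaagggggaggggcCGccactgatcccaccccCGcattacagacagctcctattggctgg

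Cox6b1 had 14 CG pairs and Cox6b2 had 8. The 50 matched members outside the tissue-restricted forms had a median of 14 pairs (3 to 28). The 4 matched tissue forms, Cox6b2, Cox7a1, Cox7b2 and Cox8b, had a median of 6 (1 to 9), the same as the median of all genes in the table.

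Across the 4 arrays, most subunits were highest in vehicle overload and lowest in GW4869 overload. Vehicle overload held the highest level for 43 of 66 subunits (65.2%), against 30.1% of all genes, and GW4869 overload the lowest for 52 (78.8%), against 22.3%. Both held for 34 subunits (51.5%) and for 9.15% of all genes. The spread was small: the median range from lowest to highest array was 0.74 log2 units, and 54 of 66 subunits (81.8%) had a range under 1, against 56.4% of all genes. Of 17 measured adipocyte markers, 12 (70.6%) were highest in vehicle overload, 11 (64.7%) lowest in GW4869 overload and 8 (47.1%) both.

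**Figure D1:**
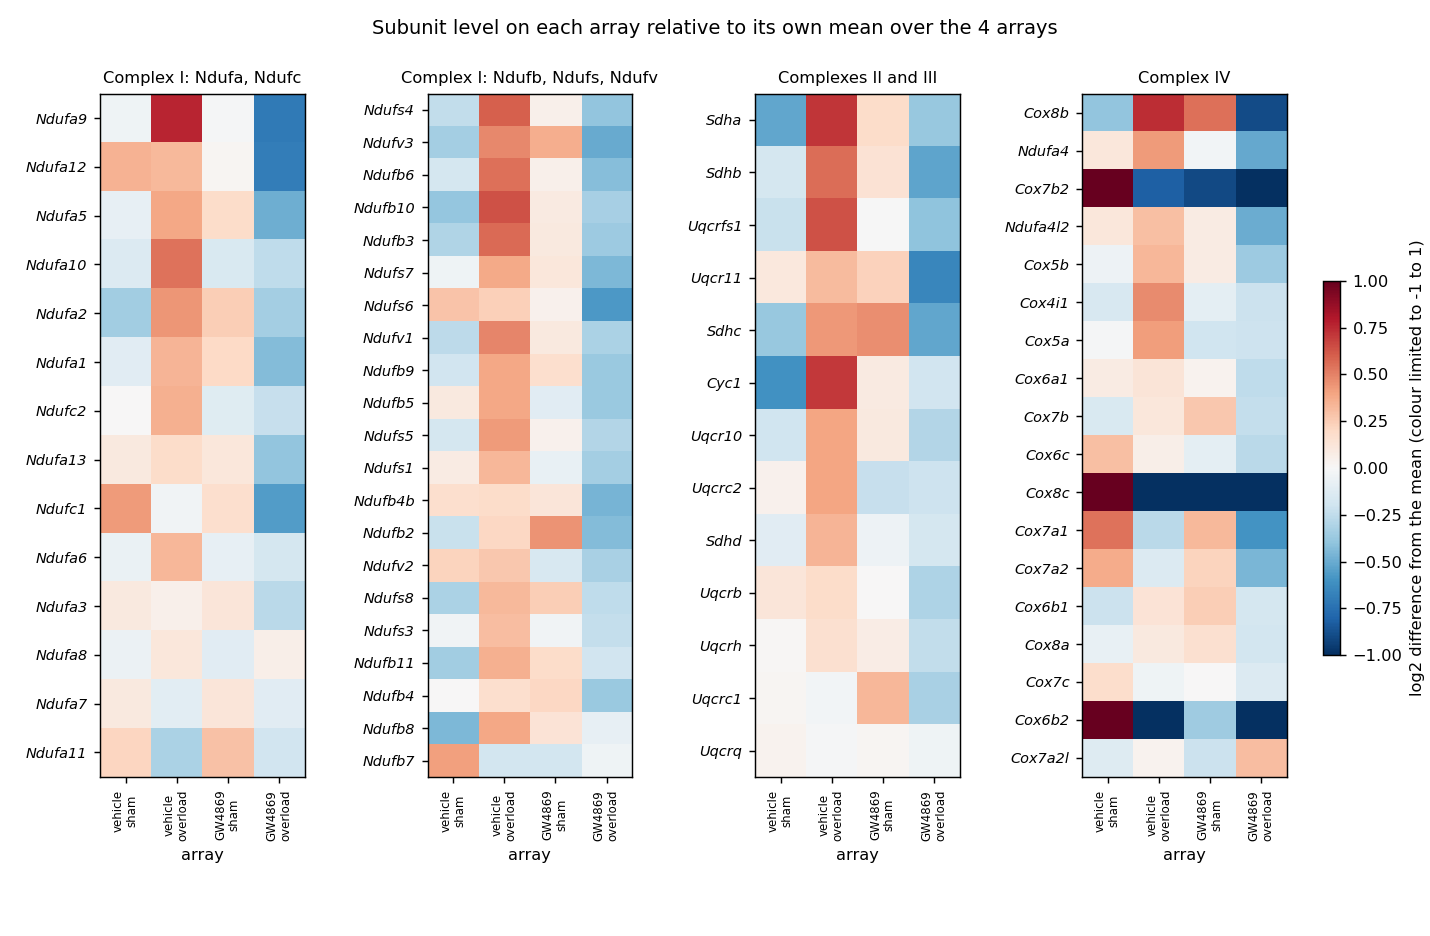
Levels of the 66 subunits above the floor on each array, as the log2 difference from the subunit's own mean over the 4 arrays; columns are arrays and rows genes, grouped by complex and sorted by vehicle overload minus GW4869 overload. Most rows are red in the vehicle overload column and blue in the GW4869 overload column, and Cox6b2, Cox7b2 and Cox8c are high in vehicle sham.

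Marker lists moved with these arrays and are given here as measured. Mature adipocyte markers had median levels of 16.63 and 16.98 for sham and overload under vehicle and of 16.72 and 16.83 under GW4869, and 0 of 17 were under the floor on any array. All 15 sperm and testis markers lay above the background probes in vehicle sham, at a median of 14.79 (8.62 to 17.92), against medians of 3.96, 3.16 and 4.34 on the other arrays. In GW4869 overload 12 of 15 were within background, and Prm1 (7.04), Prm2 (6.74) and Smcp (7.10) lay above it. Of 11 measured epididymal epithelium markers, 10 were above background in GW4869 overload, where their median was 14.70, and 7 were within background in vehicle sham. The 5 distal tract markers, a list taken from earlier results of these data, had medians of 12.05 and 12.57 in the sham arrays and 3.35 and 4.48 in the overload arrays. Smooth muscle markers had medians of 14.29 and 13.92 in the sham arrays and 7.58 and 10.84 in the overload arrays. Macrophage markers had medians of 11.16, 11.69, 12.75 and 12.05, and endothelial markers 10.36, 11.33, 10.82 and 10.34, in the order given for adipocytes. Brown adipocyte markers, Ucp1 among them, were all 5 under the floor in all 4 arrays. The part of these cell types in the subunit differences was not tested.

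Overload against sham under vehicle asks how fat differs after muscle overload. Here 50 of 66 subunits were above 0, against 64.2% of all genes, and the other 16 below 0, against 35.8%, with a median difference of 0.35 against 0.26 for all genes. By 1.5-fold, 21 subunits (31.8%) were higher, against 30.2% of all genes, so their share was close to that of all genes. Only 5 (7.58%) were lower, against 16.9%, and 4 of these 5, Cox6b2, Cox7b2, Cox8c and Cox7a1, were tissue-restricted forms. The median adipocyte marker differed by 0.35 in the same comparison.

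Under GW4869 the overload comparison ran the other way. The median subunit differed by -0.43 against -0.04 for all genes, and 62 of 66 were below 0, against 53.1% of all genes. By 1.5-fold, 18 subunits (27.3%) were lower, against 15.3% of all genes, and 0 were higher, against 13.4%. Of the 18, 4 were tissue forms, Cox6b2, Cox7b2, Cox7a1 and Cox8b, with both readings within background. Without tissue forms 14 of 60 (23.3%) were lower. Adipocyte markers had a median of -0.38. The vehicle and GW4869 overload comparisons share no array. A subunit above 0 under vehicle and below 0 under GW4869 was seen 47 times (71.2%), against 36.3% of all genes. By 1.5-fold on both sides it was seen for 6 of 66 subunits, against 647 of 11703 genes (5.53%). Without tissue forms it was seen for 5 of 60. Over the 60 subunits without tissue forms the 2 differences correlated at r = -0.16, close to the r = -0.14 over all 11703 genes.

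GW4869 against vehicle in sham mice gave a median of 0.06, against 0.27 for all genes. There 39 subunits were above 0, against 67.2% of all genes, and the remaining 27 below 0, against 32.8%. By 1.5-fold, 7 subunits (10.6%) were higher, against 28.9% of all genes, and 4 (6.06%) were lower, against 14.4%. In overloaded mice the median was -0.63, against -0.04 for all genes, and 62 of 66 were below 0, against 52.9% of all genes. By 1.5-fold, 37 subunits (56.1%) were lower, against 18.8%. None was higher (0 of 66), against 18.4% of all genes. Of the 37 lower, 3 were tissue forms, Cox8b, Cox7b2 and Ndufa4l2, with both readings within background. Without tissue forms 34 of 60 (56.7%) were lower. Adipocyte markers had medians of 0.15 and -0.65. These comparisons reuse the arrays of the overload comparisons.

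**Figure D2:**
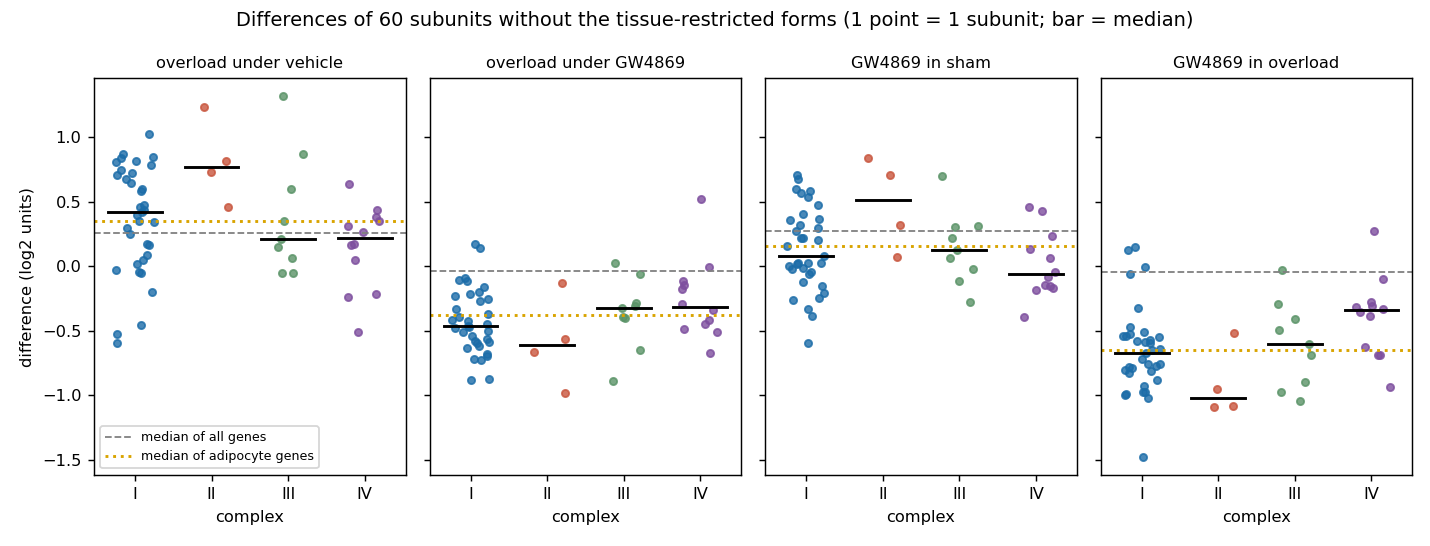
Log2 differences (vertical axis) of the 60 subunits outside the tissue-restricted forms, by complex, in each comparison; a point is a subunit, a bar the median of a complex, the dashed line the median of all genes and the dotted line that of adipocyte markers. Complex II has the highest median for overload under vehicle (0.77) and the lowest for GW4869 in overload (-1.02).

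The median of the subunits was near that of the adipocyte markers in each comparison. When the median adipocyte difference was subtracted, a scaling added after the data were seen, the subunit medians became -0.0036 for overload under vehicle, -0.06 for overload under GW4869, -0.09 for GW4869 in sham and 0.02 for GW4869 in overload. For overload under vehicle 4 subunits were then higher, against 14.0% of all genes, and 9 lower, against 25.5%. Cyc1, Sdha, Cox8b and Ndufb10 were the 4 higher. Cox8b and Cox7a1, which was among the 9 lower, were within background on both arrays. Overload under GW4869 left 1 higher, against 31.6%, and 3 lower, against 5.89%. The 3 lower were Sdhc, Cox8b and Cox6b2, the last 2 with both readings within background. GW4869 in sham left 2 higher, against 20.5%, and 4 lower, against 17.5%, and in overload 7 higher, against 51.3%, and 2 lower, against 3.41%. Cox8b was among the 2 higher in sham and the 2 lower in overload, and Cox6b2 among the 7 higher in overload. These calls compare readings within background.

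Centring each array on the median level of the same markers gave medians of -0.0036, -0.54, -0.02 and -0.48, so the values for the GW4869 overload array depend on how the markers are summarised. Overload under vehicle then had 4 higher, against 14.0% of all genes, and 9 lower, against 25.5%, and overload under GW4869 had 29 lower, against 20.1%. GW4869 in sham had 6 higher, against 24.2%, and 4 lower, against 16.0%, and in overload 0 higher, against 23.9%, and 26 lower, against 13.0%. Centring on all genes gave 45 higher for overload under vehicle, against 58.2%, 28 lower for overload under GW4869, against 19.7%, and 23 higher for GW4869 in sham, against 53.0%. In overload it gave 49 lower for GW4869, against 29.5%. With the trend of the difference with level removed, 8 subunits were lower for overload under vehicle, against 23.7%, and 28 for GW4869 in overload, against 16.3%. GW4869 overload thus kept more subunits lower than the share of all genes under 3 of the 4 scalings named, and with the median adipocyte difference subtracted it kept 2 of 66.

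**Figure D3:**
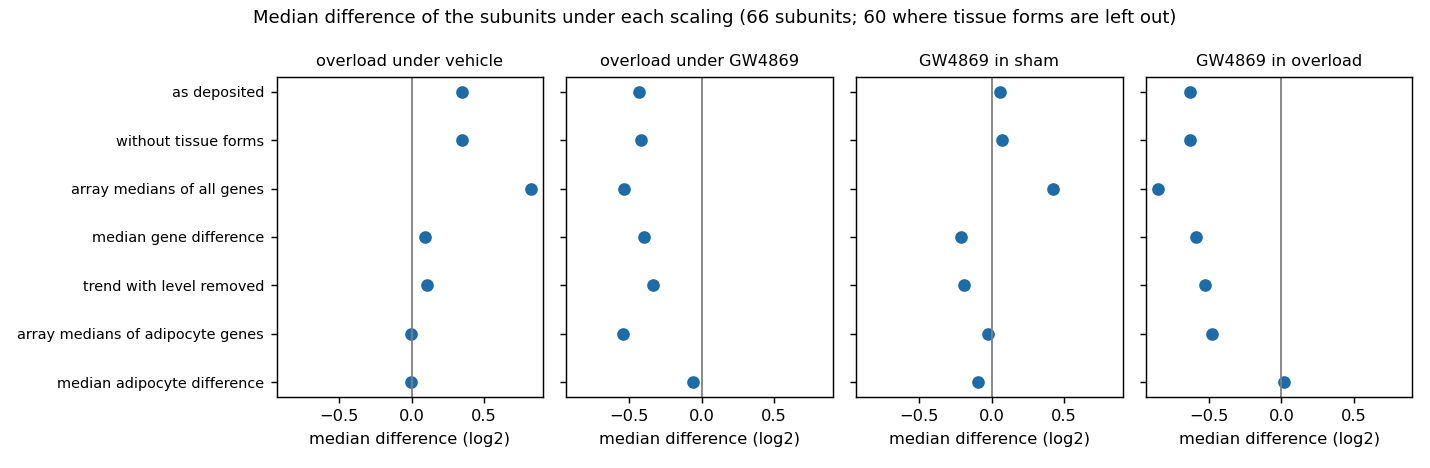
Median log2 difference of the subunits (horizontal axis) under each scaling (rows) in the 4 comparisons. Overload under vehicle lies between -0.0036 and 0.82, and GW4869 in overload between -0.85 and 0.02, the last with the median adipocyte difference subtracted.

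Complex I was represented by 35 subunits. Their median difference was 0.42 for overload under vehicle, with 13 higher by 1.5-fold (37.1%, against 30.2% of all genes) and 1 lower (2.86%, against 16.9%). For overload under GW4869 it was -0.46, with 0 higher (against 13.4%) and 9 lower (25.7%, against 15.3%). For GW4869 it was 0.08 in sham and -0.67 in overload, where 22 were lower (62.9%, against 18.8%). The 6 measured core subunits, among them those that carry the flavin and iron-sulphur clusters, had medians of 0.38 and -0.34 for overload under vehicle and under GW4869. The 29 accessory subunits had 0.43 and -0.47. All 6 core subunits were highest in vehicle overload, against 30.1% of all genes, and 5 of them lowest in GW4869 overload, against 22.3%.

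Ndufv1 holds the flavin that accepts electrons from NADH. It stood at 13.49, 14.24, 13.85 and 13.43 in the sham and the overload array under vehicle and then under GW4869, an order used for all levels that follow. Vehicle overload was thus highest and the array pair of vehicle sham and GW4869 overload lowest. Ndufv2, an iron-sulphur protein beside it, was at 13.13, 13.18, 12.75 and 12.59, with both GW4869 arrays lower than both vehicle arrays. Ndufv3, a small accessory protein of the same arm, was at 7.44, 8.25, 8.14 and 7.27. Its overload difference was 0.82 under vehicle and -0.87 under GW4869.

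Among the other core subunits, Ndufs1 was at 11.49, 11.74, 11.34 and 11.07. Ndufs3, a core protein of the arm that reaches ubiquinone, was at 13.92, 14.27, 13.93 and 13.72. Ndufs7 and Ndufs8, which pass electrons towards ubiquinone, differed by 0.42 and 0.64 for overload under vehicle and by -0.56 and -0.50 under GW4869. Ndufs4, an accessory protein of the matrix arm, was among the 3 highest of complex I for overload under vehicle, at 10.23, 11.07, 10.53 and 10.08. The difference was 0.84, and -0.45 under GW4869. Ndufs6, another matrix arm protein, was the 1 of 7 Ndufs genes below 0 for overload under vehicle, at 10.57, 10.52, 10.32 and 9.71.

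Ndufa9 sits where the matrix arm meets the membrane arm. Its levels were 11.50, 12.31, 11.53 and 10.84, the largest range of complex I at 1.47. The sham arrays lay close together, with vehicle overload above and GW4869 overload below them. GW4869 in overload differed by -1.47. Ndufa12, an accessory protein of the matrix arm, was at 14.55, 14.52, 14.22 and 13.50, low in GW4869 overload and alike on the vehicle arrays. Its GW4869 difference in overload was -1.02. Ndufa2 stood at 10.68, 11.47, 11.28 and 10.69.

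Not all Ndufa genes had this profile. Ndufa8, in the membrane arm, was at 13.58, 13.75, 13.52 and 13.69, and Ndufa7 was at 6.77, 6.57, 6.79 and 6.56. Their ranges of 0.23 each were among the 5 smallest of all subunits. Ndufa11, a membrane arm protein, was at 11.38, 10.85, 11.46 and 10.98, lower in overload under both vehicle and GW4869. Over the 12 Ndufa genes of complex I the median was 0.28 for overload under vehicle and -0.49 under GW4869.

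The 11 Ndufb genes encode proteins of the distal membrane arm. For overload under vehicle 10 were above 0, against 64.2% of all genes, with a median of 0.58. Ndufb10 had the largest difference of complex I, 1.02, from levels of 7.27, 8.29, 7.74 and 7.32. Ndufb3 followed at 0.87, with levels of 10.20, 11.06, 10.60 and 10.13. Both were highest in vehicle overload and had close levels in vehicle sham and GW4869 overload. Ndufb2 was at 10.25, 10.69, 10.93 and 10.05, highest in GW4869 sham, and its overload difference under GW4869 was -0.88. Ndufb7, which lies on the intermembrane side, was the exception at 8.69, 8.10, 8.10 and 8.25, highest in vehicle sham. It was the 1 complex I subunit lower by 1.5-fold for overload under vehicle, at -0.59.

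Ndufb4 and its near-copy Ndufb4b had similar levels, 13.90, 14.06, 14.10 and 13.53 against 14.00, 14.02, 13.95 and 13.37. Their probes may read each other's transcripts, so they are not separate readings with certainty. Of the Ndufc genes, both membrane arm proteins, Ndufc1 was at 15.86, 15.40, 15.60 and 14.88 and Ndufc2 at 13.96, 14.31, 13.83 and 13.72. Ndufc1 was highest in vehicle sham and Ndufc2 in vehicle overload, and both were lowest in GW4869 overload. The other 12 accessory subunits were Ndufa1, Ndufa3, Ndufa5, Ndufa6, Ndufa10, Ndufa13, Ndufb5, Ndufb6, Ndufb8, Ndufb9, Ndufb11 and Ndufs5. Their differences ran from -0.04 (Ndufa3) to 0.84 (Ndufb8) for overload under vehicle and from -0.68 (Ndufa5) to -0.09 (Ndufa6) under GW4869. All but Ndufa3 were highest in vehicle overload, against 30.1% of all genes.

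Complex II, which is also an enzyme of the citric acid cycle, had the largest median difference of the 4 complexes in each comparison. All 4 subunits were above 0 for overload under vehicle, as were 64.2% of all genes, with a median of 0.77 and 3 of 4 higher by 1.5-fold (against 30.2%). All 4 were below 0 under GW4869, as were 53.1% of all genes, with a median of -0.61 and 2 of 4 lower by 1.5-fold (against 15.3%). Sdha, the flavin subunit that oxidises succinate, was at 9.83, 11.07, 10.54 and 9.98. Its overload difference was 1.23 under vehicle and -0.56 under GW4869. Sdhb, the iron-sulphur subunit, was at 13.16, 13.89, 13.48 and 12.81. For both genes vehicle overload was highest, GW4869 sham next, and the other arrays lower.

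Sdhc and Sdhd anchor the enzyme in the membrane. Sdhc was at 10.55, 11.36, 11.39 and 10.41, so vehicle overload and GW4869 sham were alike and about 1 unit above GW4869 overload. Its differences were 0.81 and -0.98 for overload, and 0.84 and -0.95 for GW4869. Sdhd was at 11.46, 11.91, 11.52 and 11.40, with vehicle overload above 3 similar arrays. After subtraction of the median adipocyte difference, Sdha kept 0.88 for overload under vehicle and Sdhc -0.60 for overload under GW4869.

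In complex III the subunits that carry electrons differed more than several of the structural ones. Cyc1, cytochrome c1, was at 7.29, 8.60, 7.99 and 7.70. Its difference of 1.31 for overload under vehicle was the largest upward difference of all subunits, and 0.96 remained after subtraction of the adipocyte difference. Uqcrfs1, the Rieske iron-sulphur protein, was at 11.25, 12.12, 11.47 and 11.07, with differences of 0.86 for overload under vehicle and -1.04 for GW4869 in overload. Both were highest in vehicle overload, but the lowest array was vehicle sham for Cyc1 and GW4869 overload for Uqcrfs1. Over the 9 subunits the medians were 0.21, -0.32, 0.13 and -0.60 in the order of the comparisons. By 1.5-fold 3 of 9 were higher for overload under vehicle (33.3%, against 30.2% of all genes) and 0 lower (against 16.9%). For overload under GW4869 2 were lower (22.2%, against 15.3%), and for GW4869 in overload 5 (55.6%, against 18.8%).

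The core proteins Uqcrc1 and Uqcrc2 had different profiles. Uqcrc1 was at 11.29, 11.24, 11.60 and 10.95, highest in GW4869 sham, and Uqcrc2 at 8.79, 9.14, 8.51 and 8.54, highest in vehicle overload. Among the small subunits, Uqcrq was nearly level at 11.49, 11.44, 11.47 and 11.41, and its range of 0.08 was the smallest of all members. Uqcrb was at 17.66, 17.73, 17.55 and 17.24. Uqcr10 was at 10.03, 10.63, 10.33 and 9.94. Uqcr11 was at 7.91, 8.13, 8.04 and 7.16, low in GW4869 overload alone, with an overload difference of -0.89 there. Uqcrh, the hinge protein beside cytochrome c1, had a range of 0.41.

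Complex IV was counted with Ndufa4, which is now placed in this complex in spite of its symbol, and Ndufa4l2. Of its 18 members above the floor, 12 are widely used forms. These 12 had medians of 0.22 for overload under vehicle, -0.32 for overload under GW4869, -0.06 for GW4869 in sham and -0.34 for GW4869 in overload. Their largest range was 0.94 (Ndufa4). In overload under vehicle 1 of 12 was higher by 1.5-fold (8.33%, against 30.2% of all genes) and 0 lower (against 16.9%). For overload under GW4869 1 of 12 was lower (8.33%, against 15.3%), and for GW4869 in overload 4 of 12 (33.3%, against 18.8%). Cox4i1, a large nuclear subunit, was the 1 higher under vehicle with 0.63, from levels of 13.47, 14.11, 13.53 and 13.42. Vehicle overload alone was high.

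Cox5a, on the matrix side, was at 11.69, 12.12, 11.50 and 11.49, again with vehicle overload high. Cox5b was at 14.11, 14.49, 14.24 and 13.80. Ndufa4 was at 15.65, 15.96, 15.50 and 15.02, and its GW4869 difference in overload was -0.94. Cox7c, a small membrane subunit, was at 18.31, 18.10, 18.14 and 18.00, with a range of 0.31. Cox6c was at 16.64, 16.40, 16.25 and 16.07, highest in vehicle sham.

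The testis forms of 3 isoform families separated the array of vehicle sham from the rest. Cox6b2, Cox7b2 and Cox8c, forms known from testis, were high in vehicle sham and within background on the other arrays, where background is the 95th percentile of the 23 background probe rows, 6.34 to 6.40. Cox6b2 stood at 10.57 in vehicle sham and at 4.04, 5.79 and 4.18 elsewhere. Taking background for the lower array, its difference was -4.22 or lower for overload under vehicle. Cox7b2 stood at 9.42 against 5.24, 5.16 and 4.44, a difference of -3.07 or lower. Cox8c stood at 11.74 against 5.26, 5.11 and 4.94, a difference of -5.40 or lower. Vehicle sham was also the array on which all 15 sperm and testis markers lay above background, against 3 of 15 in GW4869 overload and 0 in the other arrays. The part of testis RNA in the other subunit levels was not tested.

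The widely used partners did not share that peak. Cox6b1 was at 13.24, 13.59, 13.70 and 13.28, and Cox7b at 13.20, 13.47, 13.63 and 13.12, both highest in GW4869 sham. Cox8a was at 17.08, 17.25, 17.31 and 16.97, with a range of 0.34. Vehicle sham was below vehicle overload and GW4869 sham for all 3 genes.

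Muscle and heart forms were at background. Cox6a2 was at 2.83, 2.88, 3.01 and 2.93 and lay under the floor. Cox7a1 was at 5.23, 4.42, 5.01 and 4.09, and Cox8b, also used by brown fat, at 4.38, 5.52, 5.33 and 3.88. Both passed the floor on the mean but lay within background on every array, so their counted differences compare background readings. Cox4i2, a form known from lung, was at 4.06, 4.17, 4.28 and 3.56, under the floor. Ndufa4l2, a form induced by low oxygen, was at 4.99, 5.18, 4.96 and 4.39, within background. Of 10 skeletal muscle markers, 7 to 8 were within background on each array.

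The partners of the muscle forms were measured well. Cox6a1 was at 17.29, 17.34, 17.24 and 16.95, lower in GW4869 overload than on 3 similar arrays. Cox7a2 was at 11.54, 11.02, 11.38 and 10.71, lower after overload under both vehicle (-0.51) and GW4869 (-0.67). Cox7a2l, which joins complexes III and IV into a supercomplex, went the opposite way at 11.69, 11.86, 11.61 and 12.13. It was the only 1 of the 66 subunits whose highest array was GW4869 overload, and its overload difference there was 0.52.

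**Figure D4:**
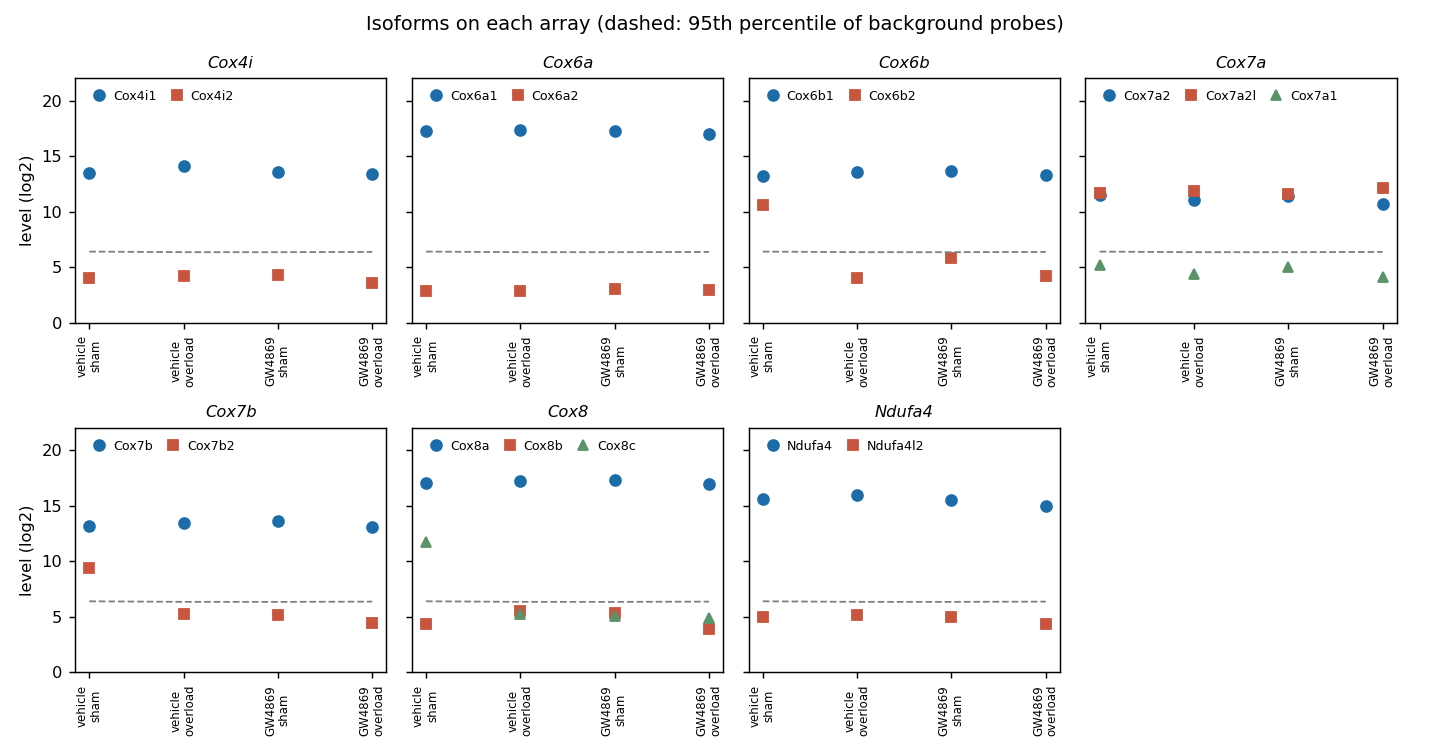
Log2 levels (vertical axis) of each isoform family on the 4 arrays; the dashed line is the 95th percentile of background probes, and levels may be compared across arrays within a gene only. Cox6b2, Cox7b2 and Cox8c lie above the line in vehicle sham only, and Cox4i2, Cox6a2, Cox7a1, Cox8b and Ndufa4l2 lie below it on every array.

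Other genes of oxidative metabolism followed the order of the arrays in part. Of 12 measured citric acid cycle genes, 5 were higher (41.7%, against 30.2% of all genes) and 1 lower (8.33%, against 16.9%) for overload under vehicle, with a median of 0.57. Under GW4869 0 were higher (against 13.4%) and 3 of 12 lower (against 15.3%), with a median of -0.46. Suclg2 and Dlst, enzymes on either side of succinyl-CoA, had 1.498 and 1.19 under vehicle, and Sucla2 had -1.09 between readings within background. Cs, citrate synthase, was at 14.38, 14.80, 14.80 and 14.14, and its difference under GW4869 was -0.65. Ogdh, which makes succinyl-CoA, had 0.06 under vehicle and -0.65 under GW4869, and Mdh2, malate dehydrogenase, had 0.46 and -0.11. Of 17 ATP synthase genes, 1 was higher and 1 lower (5.88% each) in each overload comparison, with medians of 0.17 and -0.26. The shares of all genes were 30.2% and 16.9% under vehicle and 13.4% and 15.3% under GW4869. The extremes besides the c-ring genes were Atp5k (0.47) and Atp5d (-0.44) under vehicle, and Atp5mpl (0.21), Atp5k (-0.63) and Atp5j (-0.58) under GW4869, with all Atp5k readings within background. Atp5g1, a c-ring gene, ran against the subunits at 13.05, 11.62, 12.59 and 13.20, and Atp5g3, which encodes the same mature protein, ran with them at 14.01, 14.62, 14.07 and 13.59.

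Assembly factors, which build the complexes but stay out of them, had 37 of 40 measured genes above the floor. For overload under vehicle 17 were higher (45.9%, against 30.2% of all genes) and 5 lower (13.5%, against 16.9%), with a median of 0.51. Among the 17 higher, Sdhaf1, Sdhaf3 and Ndufaf5 had both readings within background. Under GW4869 1 was higher (2.70%, against 13.4%) and 6 lower (16.2%, close to the 15.3% of all genes), with a median of -0.17. Cox15, which makes haem A for complex IV, had 1.23 and Taco1, needed to translate its core subunit Cox1, 1.11 under vehicle. The lowest there were Uqcc2 of complex III and Ndufaf3 of complex I, at -1.74 and -1.62. Uqcc2 was at 11.43, 9.69, 9.62 and 9.67 and Ndufaf3 at 9.95, 8.33, 8.10 and 7.91, high in vehicle sham alone. Vehicle sham was also the array high in sperm and testis markers, whose part here was not tested. Under GW4869 the highest were Ndufaf5 (0.97) of complex I and Cox14 (0.41) of complex IV, and the lowest Cox19 (-1.16) and Ndufaf2 (-1.01). Both Cox14 readings, the sham reading of Ndufaf5 and the overload reading of Ndufaf2 were within background, and Ndufaf5 was the 1 gene counted as higher. Of the assembly factors 17 (45.9%) were lowest in vehicle sham, the same as the share of all genes, 45.9%. In GW4869 overload 12 (32.4%) were lowest, against 22.3% of all genes. The subunits themselves were lowest in vehicle sham 8 times (12.1%).

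Regulators of mitochondrial genes were measured for 7 of 10 listed above the floor, and 4 were higher (57.1%, against 30.2% of all genes) and 0 lower (against 16.9%) for overload under vehicle. Ppargc1a, a coactivator of mitochondrial biogenesis, was at 6.98, 8.90, 6.90 and 7.74, higher after overload by 1.92 under vehicle and 0.84 under GW4869. Ppargc1b, its relative, differed by 1.23 under vehicle and -0.31 under GW4869. Nrf1, the factor behind the motif marked in Sdha and Sdhd, was at 7.82, 8.64, 8.72 and 8.86, lowest in vehicle sham. Tfam, which packages mitochondrial DNA, was at 7.55, 7.01, 7.23 and 6.93, highest in vehicle sham. Vehicle overload was the highest array for both coactivators and for 5 of the 7 regulators, against 30.1% of all genes. Yy1, whose motif was among those searched, had 0.12 under vehicle and 0.06 under GW4869.

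Cycs, the cytochrome c that links complexes III and IV, was at 15.87, 16.05, 16.03 and 15.40, low in GW4869 overload. Its testis form Cyct was under the floor on all 4 arrays, at 3.88 in vehicle sham, unlike the testis forms of complex IV.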

How the data were processed

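RNA from epididymal fat was measured on 4 arrays, 1 for each of 4 groups taken from the sample titles. The submitters' processing notes name Partek and RMA, without versions, and the deposited values are on a log2 scale, as the authors gave them for each probe set. The values reach 19.93, so a fold applies to the deposited scale only. The platform annotation named 19572 probe sets with 1 symbol each, 19505 genes in all. The probe set with the highest mean was kept per gene, and 0 of the 68 members had several. All 68 symbols matched RefSeq. The floor was the 40th percentile of gene means. Differences of log2 values were counted past 1.5-fold, with no test, since 1 array per group gives no spread. Precision is limited by there being 4 arrays. Members, lists and motifs were chosen with earlier results of these data known. Named subunits were the extremes of complexes I, III and IV in each comparison, complex II, Cyc1, the isoform families and the 5 largest and 5 smallest ranges; other members named were chosen after their values were seen. Of the other pathway lists the extremes of the overload comparisons were named. Alternatives were other centring, removal of the trend with level (lowess, fraction 0.3, statsmodels 0.14.6), other floors and a 2-fold threshold. The counting step was tested on simulated data. Python 3.11.15 and pandas 2.3.3 were used.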

Additional observations from a re-analysis of the deposited data

Results flagged for a closer look

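Overload and sham were 1 array each under vehicle and under GW4869, and the differences below were not tested. The median subunit had opposite signs, 0.35 under vehicle and -0.43 under GW4869, which are 0.78 apart. The medians of all genes were 0.26 and -0.04. By at least 1.5-fold, 6 of 66 subunits were higher under vehicle and lower under GW4869, as were 647 of all 11703 genes (5.53%). Their distances were 1.79 (Sdhc), 1.69 (Ndufv3), 1.501 (Ndufa9), 1.39 (Sdhb), 1.38 (Ndufa2) and 2.58 (Cox8b). The Cox8b readings lay within background on all 4 arrays. Adipocyte markers had medians of 0.35 and -0.38 in the same comparisons.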

How the results depend on the processing

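No paired analysis was possible because each group has 1 array. Every value rests on 1 array per group, so no array could be left out. For overload under vehicle, the median of 0.35 became 0.82 with all-gene centring, -0.0036 both with adipocyte centring and with the median adipocyte difference subtracted, 0.11 with the trend removed and 0.0905 with the median gene difference subtracted. The 21 higher and 5 lower became 45 and 3, 4 and 9, 4 and 9, 4 and 8, and 7 and 8, in that order, and 4 and 3 at 2-fold. For these scalings the shares of all genes were 58.2% and 11.4%, 14.0% and 25.5%, 14.0% and 25.5%, 15.6% and 23.7%, and 17.4% and 22.5%. The 60th percentile floor left 1 lower. For overload under GW4869, the median of -0.43 became -0.54 with all-gene centring (28 lower, against 19.7% of all genes). Adipocyte centring gave -0.54 (29 lower, against 20.1%). With the median adipocyte difference subtracted it was -0.0559 (1 higher, against 31.6%, and 3 lower, against 5.89%). Trend removal gave 1 higher and 11 lower, against 14.8% and 13.4% of all genes, and 2-fold 2 lower. For GW4869 in sham, the median of 0.06 became 0.42 with all-gene centring (23 higher, against 53.0% of all genes). Trend removal gave -0.19 (1 higher). The median was -0.0931 with the median adipocyte difference subtracted (2 higher, against 20.5%). With the median gene difference subtracted it was -0.21 (1 higher, 7 lower). Of all genes, 14.7% were higher there with the trend removed. With the median gene difference subtracted, 16.1% of all genes were higher and 20.2% lower. The 60th percentile floor left 1 lower, and 2-fold 0 higher. For GW4869 in overload, the median of -0.63 became -0.85 with all-gene centring, -0.48 with adipocyte centring and -0.53 with the trend removed. With the median adipocyte difference subtracted it was 0.0152 (7 higher, against 51.3% of all genes, and 2 lower, against 3.41%). At 2-fold 6 were lower. The shares of all genes at 2-fold and at the 60th percentile floor were not counted, so those counts have no comparison. Subtracting the median adipocyte or gene difference was added after the data were seen. Using no floor, setting values to the floor and leaving out the tissue forms moved no median by 0.1 or more, and 0 members had a second probe set. The cause of these moves was not tested.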
